A study of Mus musculus with 12 samples.

Results

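The unfolded protein response and the integrated stress response were followed through 34 genes, of 55536 in the deposited tables, in mouse liver after knockdown of G0s2 or Rgs16. The members were taken by gene symbol and sorted by role into chaperones and folding (15 genes), degradation (7), sensors (4) and the ATF4 arm (6). The remaining 2, Sec61b and Ssr1, belong to translocation into the endoplasmic reticulum (ER), a branch that the rule for choosing members did not name. Total RNA was sequenced from 12 liver samples in 3 groups of 4, named shLacZ, shG0s2 and shRgs16 after the short hairpin RNA that an adenovirus carried. All groups were wild-type C57BL/6J mice, 8 weeks old, which received 0.1 OD of virus through the tail vein, and the livers were collected 12 days later at ZT12 (lights off) after 6 h without food. The shLacZ controls thus carried the same kind of virus, with a hairpin against a bacterial gene. The hairpins' promoter and sequence were not given in the sources used here, and the labels do not say that replicates are separate animals. The p-values therefore measure the spread between these samples, which may be technical.

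Proteins that enter the ER are folded there by chaperones and disulfide isomerases, and those that fail to fold are sent back to the cytosol and destroyed, a route called ER-associated degradation. When unfolded protein accumulates, the membrane sensors IRE1, PERK and ATF6 raise the transcription of these same chaperones and degradation factors, IRE1 through splicing of Xbp1 mRNA. PERK is also one of the kinases that phosphorylate the translation factor eIF2, which lowers protein synthesis but raises translation of Atf4. ATF4 then raises genes of amino acid supply and, with CHOP (Ddit3), of cell death and recovery. The liver secretes most plasma proteins, so its hepatocytes carry a large ER.

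Some genes of the ER branches carry a promoter element that the choice of members, made by symbol, did not use directly. The members are known genes of this response, so the shares below are a description and not independent of that choice. The ER stress response element (ERSE, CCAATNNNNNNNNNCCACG) is known to be bound by ATF6 together with NF-Y. It was searched on both strands of RefSeq promoter windows (GRCm38.p6) from 250 bases before to 50 after each start, which were found for 30 of the 34 members. An ERSE stood in 9 of those 30 (30.0%), against 37 of 27025 genes with a window (0.137%). The 9 were Calr, Canx, Creld2, Dnajc3, Hsp90b1 (which held 2), Hspa5, Pdia6, Derl3 and Syvn1, all chaperone or degradation genes. The second form, ERSE-II (ATTGGNCCACG), stood in Dnajb11 and Herpud1, 6.67% of members against 0.0444% of genes. The element of the ATF4 arm, the CARE (TGATGNAA), is short and common: it stood in Asns, Chac1, Herpud1 and Trib3, 13.3% of members against 4.51% of genes. In the stretches below, written 5′ to 3′ on the gene's own strand, capitals mark the ERSE in either orientation. They are shown because these genes include the members that differed most from control.
Hspa5, chr2:34772010-34772058, plus strand: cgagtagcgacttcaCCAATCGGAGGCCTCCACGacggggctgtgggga
Creld2, chr15:88819505-88819553, plus strand: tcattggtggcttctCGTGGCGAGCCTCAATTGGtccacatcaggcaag
Calr, chr8:84847060-84847108, minus strand: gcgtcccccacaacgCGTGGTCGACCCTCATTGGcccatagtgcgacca
Canx, chr11:50325785-50325833, minus strand: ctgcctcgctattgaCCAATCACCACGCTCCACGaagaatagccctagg
Dnajc3, chr14:118937812-118937860, plus strand: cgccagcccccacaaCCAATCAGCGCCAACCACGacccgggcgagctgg
Pdia6, chr12:17266476-17266524, plus strand: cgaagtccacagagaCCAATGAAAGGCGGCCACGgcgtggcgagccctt
Syvn1, chr19:6046517-6046565, plus strand: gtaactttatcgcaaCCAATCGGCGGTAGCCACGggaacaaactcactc
Derl3, chr10:75893227-75893275, plus strand: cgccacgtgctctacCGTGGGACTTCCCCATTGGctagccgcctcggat

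Hsp90b1 carried its copies of the ERSE in opposite orientations, also in capitals here.
Hsp90b1, chr10:86705518-86705671, minus strand: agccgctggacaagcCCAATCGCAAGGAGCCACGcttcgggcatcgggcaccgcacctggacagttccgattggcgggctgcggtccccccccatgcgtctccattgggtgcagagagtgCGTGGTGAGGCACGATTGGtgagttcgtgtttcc

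Herpud1 is shown with its ERSE-II in capitals, and Asns and Chac1 with their CARE, because Asns was the member that moved most differently between the knockdowns.
Herpud1, chr8:94386362-94386402, plus strand: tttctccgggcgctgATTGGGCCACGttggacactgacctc
Asns, chr6:7693210-7693247, minus strand: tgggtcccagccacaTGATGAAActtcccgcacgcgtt
Chac1, chr2:119351034-119351071, plus strand: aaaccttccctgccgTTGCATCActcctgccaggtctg

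Levels are given as CPM, estimated counts relative to the library total after scaling by TMM, a method that sets the typical gene equal between samples. Libraries held 18458266 to 27170443 counts, the lowest in shG0s2 replicate 2, and members took 0.55% to 0.752% of them. G0s2 stood at 73.7 ± 9.8 CPM (SD, n = 4) in shLacZ and 37.2 ± 10.1 in shG0s2, and Rgs16 at 149 ± 46.3 in shLacZ and 26.2 ± 10.9 in shRgs16. Rgs16 was also at 59.1 ± 11.4 CPM in shG0s2, and G0s2 at 75 ± 14.1 in shRgs16. The TMM factors differed by group, 0.803 to 0.883 in controls, 1.13 to 1.25 in shG0s2 and 0.998 to 1.05 in shRgs16. Without TMM factors, on library size only, the median over all genes of the log2 fold change against shLacZ went from 0.01 to 0.50 in shG0s2 and from 0.01 to 0.31 in shRgs16. Each group's changes in members are therefore given under both scalings wherever they differ in direction and either scaling called them. Values called in neither also turned positive with library size alone. These were Dnajb9 (0.13) and Chac1 (0.11) in shG0s2, and Dnajb11 (0.13), Atf4 (0.12) and Ppp1r15a (0.14) in shRgs16.

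Markers of several cell types differed between the groups. The 7 hepatocyte markers of 8 that were found summed to 47049 to 57784 CPM in controls, 30560 to 50894 in shG0s2 and 54329 to 60211 in shRgs16, with none of the 7 at 0. Under TMM, 6 of 7 were lower in shG0s2, and in shRgs16 5 were lower and 2 higher, against 5 lower and 1 higher, and 2 lower and 2 higher, with library size alone. Most of the hepatocyte sum was Alb, at 33807 ± 3983 CPM (SD, n = 4) in controls and 35381 ± 7806 in shG0s2. Alb did not pass in shG0s2 under TMM (0.08) and was called higher with library size alone (0.56). Sums of CPM, here and for the branches below, carry the TMM factors and were not taken with library size alone. All 7 markers of stellate cells and fibroblasts were higher in shG0s2 and 5 in shRgs16, and their sum went from 188 to 266 CPM in shLacZ to 883 to 1095 and 351 to 664. For Kupffer cells and macrophages 7 of 8 markers were higher in both, with sums of 770 to 845, 1095 to 1283 and 1017 to 1211. Of 6 T cell markers 4 were higher and 1 lower in each knockdown, and of 5 cholangiocyte markers 2 were higher in each. Of 6 endothelial markers 1 was higher and 1 lower in shG0s2 and 2 were higher in shRgs16. With library size alone the higher markers numbered 7 and 6 for stellate cells and fibroblasts, and 8 and 8 for Kupffer cells and macrophages. They numbered 5 and 5 for T cells, 4 and 2 for cholangiocytes, and 4 and 5 for endothelium. Of all genes tested, 31.3% and 24.6% were higher under TMM, and 64.6% and 50.2% with library size alone. No list was tested against these shares. The part of the marker shifts in the members' changes was not tested. In whole liver, fewer cells of a type and less RNA per cell cannot be told apart.

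Most chaperone and degradation genes were lower in both knockdowns relative to the typical gene, while the sensors Ern1 and Eif2ak3 and the transcription factor Atf4 did not pass the test in either. Creld2, Hyou1, Herpud1 and Sel1l were 2.07-fold to 3.01-fold lower in shG0s2, and Derl3 was 4.78-fold lower in shRgs16. Asns, an ATF4 target, was 1.69-fold lower in shG0s2 and 2.68-fold higher in shRgs16. In shG0s2, edgeR's quasi-likelihood test with TMM scaling (adjusted p under 0.05, adjusted over all genes tested) called 21 of 34 members lower and 2 higher. Of all 15592 genes tested there, 29.2% were called lower and 31.3% higher. In shRgs16, 25 of 34 were lower and 1 higher, against 24.5% and 24.6% of 15324 genes. The members' median log2 fold change was -0.42 in shG0s2 and -0.52 in shRgs16, and that of all genes 0.01 in each. The members' CPM in all 4 knockdown samples lay below all 4 controls for 21 members in shG0s2 and 22 in shRgs16. The share of all genes separated in this way is not given here, so these numbers have no background beside them. All 34 members passed the filter on low counts in each comparison. The comparisons share their controls, so that a member lower in both is not 2 independent observations.

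These counts depend on the scaling, most of all in shG0s2. With library size alone (the library total and no TMM factor), 6 members were lower and 13 higher in shG0s2, against 7.99% and 64.6% of genes. In shRgs16, 17 were lower and 5 higher, against 8.35% and 50.2%. The members lower under both scalings in shG0s2 were Hspa5, Calr, Creld2, Hyou1, Herpud1 and Sel1l, while Canx, Pdia6 and Derl1 went from lower to higher. With limma on log2 of the deposited TPM (abundance per transcript length, scaled to a fixed total), only Creld2, Hyou1, Herpud1 and Sel1l remained lower in shG0s2, and 14 members were lower in shRgs16. The share of all genes that limma called is not given here.

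**Figure D1:**
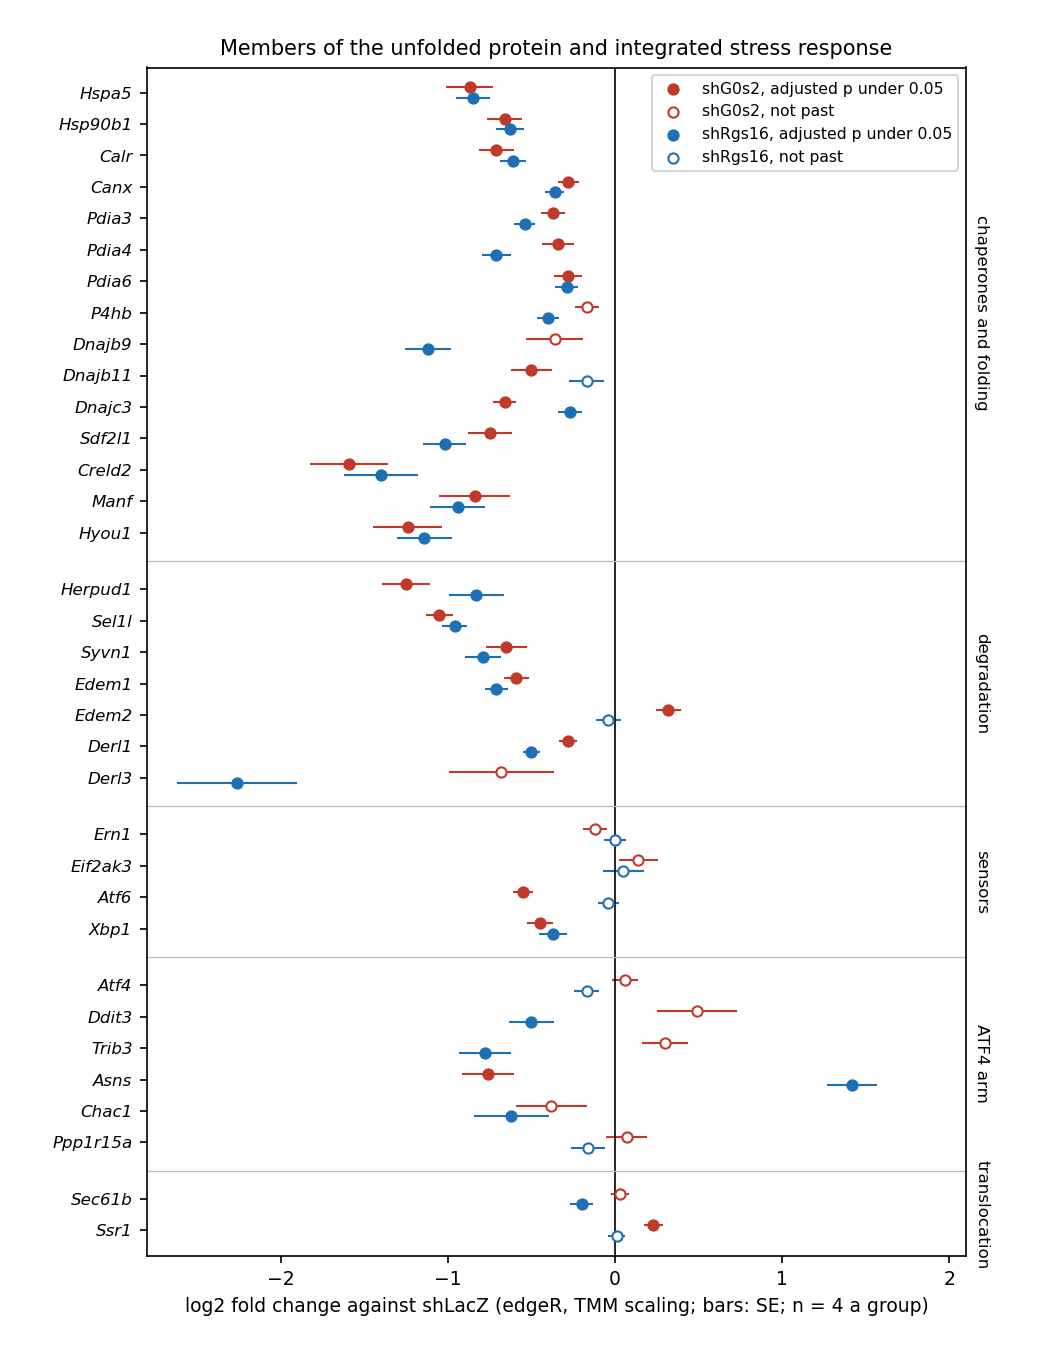
Log2 fold change of each member against shLacZ (x axis, edgeR with TMM scaling, bars are SE, 4 samples a group) for shG0s2 (red) and shRgs16 (blue), in rows by branch, with open circles for members not past an adjusted p of 0.05. Filled points of chaperones and degradation lie left of 0 except Edem2 in shG0s2, and Asns lies at -0.76 in shG0s2 and 1.42 in shRgs16. By library size alone, 3 members called lower in shG0s2 were called higher.

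Among the chaperones, Hspa5 encodes BiP, the Hsp70 of the ER and the protein that holds the sensors inactive. Its gene lies at chr2:34771970-34777547 (GRCm38, plus strand). Its CPM were 955, 1167, 892 and 848 in shLacZ, 423, 526, 664 and 490 in shG0s2, and 494, 540, 515 and 596 in shRgs16. Every knockdown sample was below every control. The log2 fold change was -0.87 (standard error, SE, 0.142, adjusted p = 0.000302) in shG0s2 and -0.85 (SE 0.101, adjusted p = 3.8e-05) in shRgs16, about 1.82-fold and 1.8-fold lower. On library totals alone it was -0.38 and -0.55, still past the threshold in both.

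Hyou1, a large Hsp70-like protein that exchanges nucleotide on BiP, was lower by more. It read 215, 269, 211 and 147 CPM in shLacZ, 72.1, 88, 114 and 81 in shG0s2, and 89.5, 88.5, 103 and 102 in shRgs16. The log2 fold changes were -1.24 (SE 0.205) and -1.14 (SE 0.163), or 2.36-fold and 2.2-fold lower, with adjusted p of 0.00104 and 0.000584. Hsp90b1 encodes GRP94, the Hsp90 of the ER, and was at 833 to 1096 CPM in controls, 551 to 698 in shG0s2 and 603 to 662 in shRgs16. Its log2 fold changes were -0.66 (SE 0.103) and -0.63 (SE 0.0841), and in shG0s2 library size alone gave -0.17 (adjusted p = 0.0859). Its exons share 415 bases with 1810014B01Rik on the other strand. Strand use in the counting was not given in the sources used here, so reads of such pairs cannot be told apart, although 1810014B01Rik was at only 1.29 to 5.6 TPM in group means.

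Calr and Canx encode calreticulin and calnexin, lectins that hold glycoproteins during folding. Calr was at 782, 814, 687 and 682 CPM in shLacZ, 388, 425, 534 and 457 in shG0s2, and 485, 486, 460 and 521 in shRgs16, with no overlap between control and knockdown. Its log2 fold change was -0.71 (SE 0.104) and -0.61 (SE 0.0767), past the threshold under both scalings in both knockdowns. Canx, the membrane-bound relative, differed less, at -0.28 (SE 0.0639) and -0.36 (SE 0.0572). When scaled by library size alone Canx was at 0.21 in shG0s2, called higher, and at -0.06 in shRgs16, not past the threshold.

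The disulfide isomerases make and shuffle the disulfide bonds of secreted proteins. The 4 that are members were lower in shRgs16 under TMM: Pdia4 at -0.71 (SE 0.0886), Pdia3 at -0.54 (SE 0.0618), P4hb at -0.40 (SE 0.0669) and Pdia6 at -0.29 (SE 0.0662). Other enzymes of this kind are in the list of other ER folding genes below, and not all were lower. Under scaling by library size alone Pdia4 (-0.41) and Pdia3 (-0.24) stayed past the threshold there, whereas P4hb (-0.10) and Pdia6 (0.01) did not. In shG0s2 the TMM values were smaller, from -0.28 in Pdia6 to -0.37 in Pdia3, and P4hb at -0.17 missed the threshold (adjusted p = 0.0556). With library size alone all 4 turned positive in shG0s2, and Pdia6 (0.21) and P4hb (0.32) were called higher. P4hb, the classical isomerase, had the highest TPM of all members in control liver, and its CPM were 1105 to 1186 in controls, 989 to 1046 in shG0s2 and 827 to 931 in shRgs16.

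The J-domain proteins, which deliver clients to BiP, differed by gene and by knockdown. Dnajb9 was at 71.1, 103, 102 and 78.8 CPM in shLacZ, 54, 86.4, 70.9 and 63.9 in shG0s2, and 41.4, 33.7, 44.7 and 44 in shRgs16. Only the shRgs16 samples stood clear of the controls, at a log2 difference of -1.12 (SE 0.139, adjusted p = 0.000176), while the shG0s2 value of -0.36 (SE 0.17) missed the threshold (adjusted p = 0.0992). Dnajb11 and Dnajc3 had the opposite order. Dnajc3 was at 259 to 309 CPM in controls, 172 to 183 in shG0s2 and 215 to 245 in shRgs16, for log2 fold changes of -0.66 (SE 0.0678) and -0.27 (SE 0.072). Dnajb11 was at -0.50 (SE 0.121) in shG0s2 and at -0.17 (SE 0.104, adjusted p = 0.194) in shRgs16. By library size alone, the shG0s2 values of Dnajc3 (-0.16) and Dnajb11 (-0.01) were not past the threshold, and Dnajc3 was at 0.03 in shRgs16.

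Creld2, an ER protein with EGF-like repeats that is known to be induced by ER stress, had the largest difference of the branch. It lies at chr15:88819646-88826683 and read 97.7, 122, 103 and 57.4 CPM in shLacZ, 26.7, 33.3, 37.1 and 28.4 in shG0s2, and 31.5, 34.4, 37.5 and 41.2 in shRgs16. Every knockdown sample was below every control, although shLacZ replicate 4 was well below the other controls. The log2 fold change was -1.59 (SE 0.233, adjusted p = 0.000649) in shG0s2 and -1.40 (SE 0.223, adjusted p = 0.00159) in shRgs16, or 3.01-fold and 2.63-fold lower. Manf, a small BiP-binding protein, was at 72.2 to 130 CPM, 45 to 72.5 and 52.1 to 61.9, with -0.84 (SE 0.214) and -0.94 (SE 0.164). Sdf2l1, a partner of ER J-domain proteins, was at 19.3 to 29.9 CPM, 13 to 17.7 and 10.5 to 13.7, with -0.75 (SE 0.132) and -1.02 (SE 0.131). On library totals alone Manf (-0.36) and Sdf2l1 (-0.27) missed the threshold in shG0s2, and both stayed past it in shRgs16. Exons of Manf overlap those of Dcaf1 and of 4930524O07Rik on the other strand and of Rbm15b on its own, so that its reads are less certain.

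Over the whole branch, 13 of 15 chaperone and folding genes were lower in shG0s2 and 14 of 15 in shRgs16 under TMM, with medians of -0.66 and -0.63. When scaled by library size alone 4 were lower and 3 higher in shG0s2, and 10 lower in shRgs16. Of all genes tested, 29.2% and 24.5% were lower under TMM. With library size alone 7.99% and 8.35% were lower, and 64.6% were higher in shG0s2. The summed CPM of the branch was 6055 ± 536 (SD, n = 4) in controls, 4166 ± 340 in shG0s2 and 4047 ± 177 in shRgs16.

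**Figure D2:**
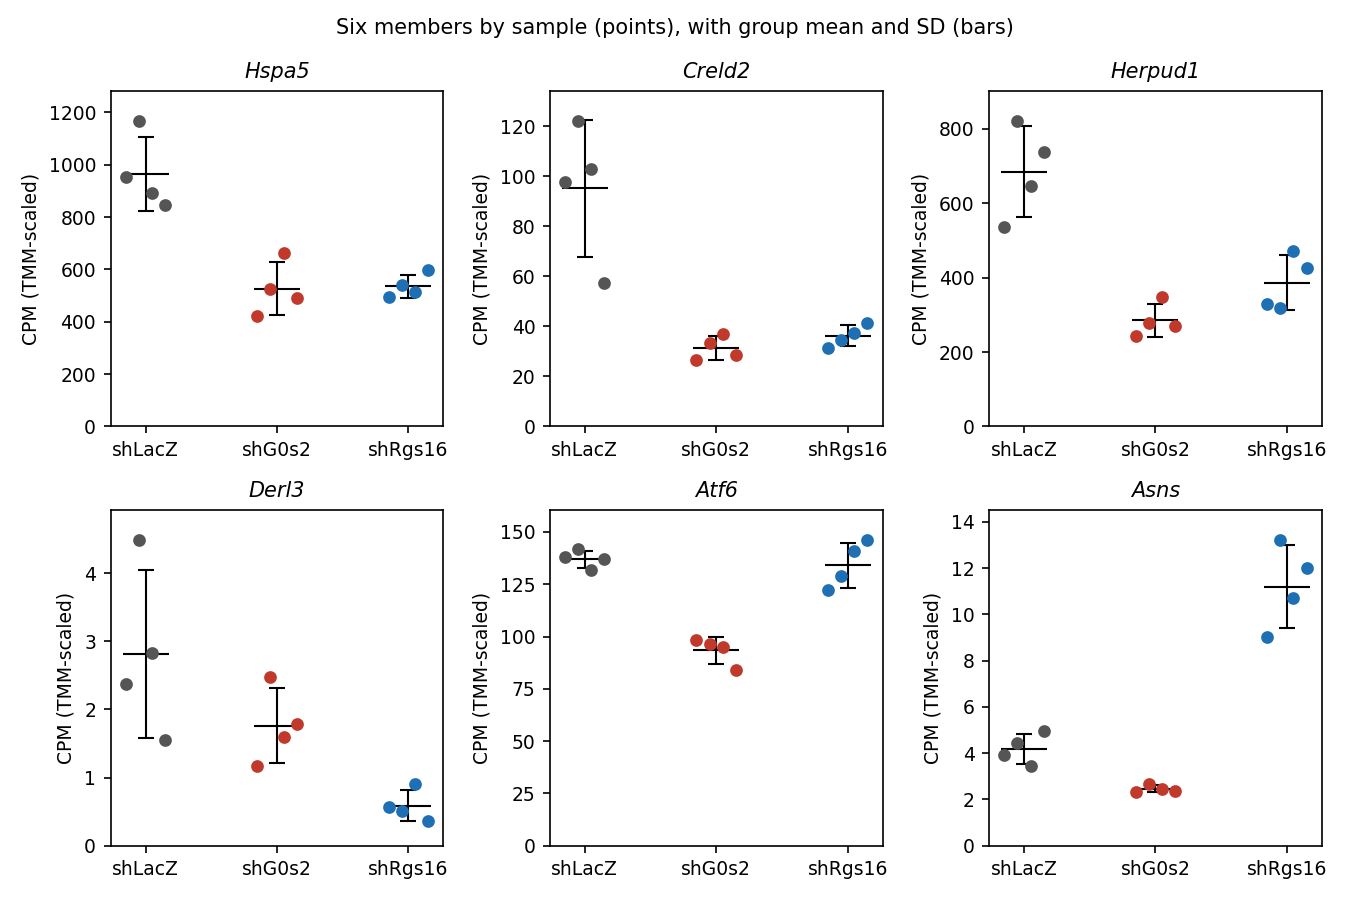
TMM-scaled CPM (y axis, from 0) of 6 members in the 4 samples of each group (points), with the group mean and SD (bars). Hspa5, Creld2 and Herpud1 lie lower in both knockdowns, Derl3 is lowest in shRgs16, Atf6 is lowest in shG0s2, and Asns is lowest in shG0s2 and highest in shRgs16. Under scaling by library size alone Atf6 was at -0.06 against shLacZ in shG0s2.

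In the degradation branch, the ubiquitin ligase HRD1 (Syvn1), its partner Sel1l and the membrane adaptor Herpud1 form the complex that passes misfolded proteins out of the ER. Herpud1, at chr8:94386438-94395377, was at 536, 821, 646 and 737 CPM in shLacZ, 244, 279, 348 and 271 in shG0s2, and 330, 318, 471 and 426 in shRgs16. Its log2 fold change was -1.25 (SE 0.144, adjusted p = 3.0e-05) in shG0s2 and -0.83 (SE 0.163, adjusted p = 0.00263) in shRgs16. Sel1l was at 261, 283, 242 and 222 CPM in shLacZ, 119, 125, 129 and 112 in shG0s2, and 133, 122, 137 and 125 in shRgs16. Its samples lay close together within groups, with -1.05 (SE 0.0799, adjusted p = 5.3e-07) and -0.96 (SE 0.0758, adjusted p = 2.4e-06). Herpud1 and Sel1l stayed past the threshold with library size alone in both knockdowns.

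Syvn1 was at 126 to 169 CPM in controls, 75.4 to 103 in shG0s2 and 74.8 to 97.1 in shRgs16, with -0.65 (SE 0.121) and -0.79 (SE 0.108). It shares 91 exon bases with Mrpl49 on the other strand. Edem1 and Edem2 encode proteins of mannose trimming, which marks glycoproteins for disposal. Edem1 was lower in both, at -0.59 (SE 0.0753) and -0.71 (SE 0.068), whereas Edem2 was higher in shG0s2 at 0.32 (SE 0.0735, adjusted p = 0.00244) and at -0.04 (SE 0.0765) in shRgs16. With library size alone Syvn1 (-0.16) and Edem1 (-0.11) were not past the threshold in shG0s2, and Edem2 was higher in both, at 0.80 and 0.26. Edem2 read 47, 45, 49 and 38.5 CPM in shLacZ, 57.4, 52.9, 56.9 and 55.4 in shG0s2, and 44.5, 41, 43.1 and 46.6 in shRgs16.

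The derlins line the channel out of the ER. Derl1 was at 142 to 158 CPM in controls, 121 to 127 in shG0s2 and 101 to 109 in shRgs16, with -0.28 (SE 0.0535) and -0.50 (SE 0.053), but was higher in shG0s2 with library size alone (0.21). Derl3, at chr10:75893413-75895941, is known from secretory cells and was among the lowest members. It read 2.37, 4.48, 2.83 and 1.55 CPM in shLacZ, 1.17, 2.48, 1.6 and 1.78 in shG0s2, and 0.571, 0.509, 0.901 and 0.358 in shRgs16. The shRgs16 samples were below all others, at a log2 difference of -2.26 (SE 0.359, adjusted p = 0.000305), the largest of any member under TMM, and -1.96 with library size alone. The shG0s2 value of -0.68 (SE 0.316) missed the threshold (adjusted p = 0.0831). Marker sums of cells rich in ER were low: plasma and B cells (9 markers, Tnfrsf17 under 1 CPM in every sample, none at 0) at 17.7 to 29.8 CPM in controls, 23.4 to 37.2 in shG0s2 and 30.2 to 40.1 in shRgs16. For pancreatic acinar cells (10 markers, 8 under 1 CPM in every sample and Cpa1, Cpb1, Prss2, Pnlip and Cel at 0) the sums were 10.1 to 14.6, 9.81 to 11.7 and 19.4 to 22.9 CPM. Most of each acinar sum was Cela1, with means of 11.2, 10.3 and 18.8 CPM. The part of plasma, B and acinar cells in the Derl3 values was not tested.

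Of the 7 degradation genes, 5 were lower and 1 higher in shG0s2 and 6 were lower in shRgs16 under TMM. By library size alone, 2 were lower and 2 higher in shG0s2, and 6 lower and 1 higher in shRgs16. Of all genes tested, 29.2% were lower and 31.3% higher in shG0s2 and 24.5% were lower in shRgs16 under TMM. With library size alone 7.99% and 8.35% were lower, and 64.6% and 50.2% higher. The sum of the branch, under TMM only, was 1478 ± 153 CPM (SD, n = 4) in controls, 810 ± 68.6 in shG0s2 and 873 ± 82.1 in shRgs16.

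Of the 4 sensor genes, Atf6 and Xbp1 were lower in shG0s2 and Xbp1 in shRgs16 under TMM, and Ern1 and Eif2ak3 in neither, while with library size alone none of the 4 was lower. Ern1, which encodes IRE1, was at 54.6 to 68.1 CPM in controls, 52.4 to 60.5 in shG0s2 and 60.5 to 62.5 in shRgs16, with -0.12 (SE 0.0742, adjusted p = 0.169) and 0.00 (SE 0.0669, adjusted p = 0.985). Eif2ak3, which encodes PERK, was at 18.9 to 28.9, 25.3 to 27.2 and 23.1 to 26.8 CPM, with 0.14 (SE 0.117) and 0.05 (SE 0.121). Approximate 95% intervals of these log2 fold changes reached from -0.27 to 0.02 and -0.13 to 0.13 for Ern1, and from -0.09 to 0.37 and -0.19 to 0.29 for Eif2ak3. They were built from the SE by a normal approximation, and are narrower than edgeR's test with few samples would give. On library totals alone Ern1 was called higher in both (0.37 and 0.31), and Eif2ak3 in shG0s2 (0.62).

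Atf6, the sensor that is cut in the Golgi to release a transcription factor, lies at chr1:170704674-170867771. It read 138, 142, 132 and 137 CPM in shLacZ, 98.2, 96.3, 95 and 83.9 in shG0s2, and 122, 129, 141 and 146 in shRgs16. The shG0s2 samples were below all others, with -0.55 (SE 0.0613, adjusted p = 1.0e-05), while shRgs16 spanned the controls at -0.04 (SE 0.0632). When scaled by library size alone Atf6 was at -0.06 in shG0s2 and at 0.26, called higher, in shRgs16. The direct test between the knockdowns, which passed the threshold under both scalings, gave -0.52 (SE 0.066, adjusted p = 1.6e-05), and -0.32 with library size alone. Xbp1, the transcription factor made by IRE1-dependent splicing, was at 214, 226, 210 and 176 CPM in shLacZ, 159, 148, 138 and 155 in shG0s2, and 178, 146, 152 and 162 in shRgs16. Its log2 fold change was -0.45 (SE 0.0794) and -0.37 (SE 0.0838), and 0.04 and -0.07 with library size alone, not past the threshold. Gene-level counts do not separate spliced from unspliced Xbp1, nor cut from uncut ATF6 protein.

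The ATF4 arm did not move together. Atf4 itself was at 75 to 80.3 CPM in controls, 73.6 to 95.1 in shG0s2 and 57.9 to 75.1 in shRgs16, with 0.06 (SE 0.0764, adjusted p = 0.528) and -0.17 (SE 0.0767, adjusted p = 0.0779). Asns, at chr6:7675169-7693254, makes asparagine and carries a CARE in the window shown above. It read 3.91, 4.44, 3.45 and 4.94 CPM in shLacZ, 2.34, 2.65, 2.46 and 2.36 in shG0s2, and 9.03, 13.2, 10.7 and 12 in shRgs16. The 3 groups did not overlap. Asns was at -0.76 (SE 0.156, adjusted p = 0.00115) in shG0s2 and at 1.42 (SE 0.15, adjusted p = 1.7e-05) in shRgs16, and with library size alone at -0.27 (adjusted p = 0.158) and 1.73. The direct difference between the knockdowns was -2.19 (SE 0.145, adjusted p = 4.2e-08), the largest of any member.

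Trib3, a pseudokinase induced by ATF4 and CHOP, went the other way. It read 9.63, 12.8, 11.5 and 7.81 CPM in shLacZ, 14.2, 12.8, 12 and 11.8 in shG0s2, and 5.71, 6.15, 5.32 and 7.12 in shRgs16. It was lower in shRgs16 at -0.78 (SE 0.155, adjusted p = 0.00136) and at 0.30 (SE 0.136, adjusted p = 0.0783) in shG0s2. Ddit3, which encodes CHOP, read 6.84, 7.36, 6.85 and 8.9 CPM in shLacZ, 7.16, 16.2, 10.4 and 8.36 in shG0s2, and 4.85, 6.07, 5.64 and 4.65 in shRgs16. Its values were widest in shG0s2, where replicate 2 was highest and the log2 fold change of 0.49 (SE 0.237) missed the threshold (adjusted p = 0.0989), and it was lower in shRgs16 at -0.50 (SE 0.135, adjusted p = 0.00905). That call was lost when all 12 samples shared a model (adjusted p = 0.0739) and with library size alone (-0.19). Exons of Ddit3 overlap those of Mars on the other strand by 68 bases.

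Chac1, which degrades glutathione, was at 5.6 to 12 CPM in controls, 5.83 to 8.44 in shG0s2 and 4.66 to 7.13 in shRgs16. Its value of -0.62 (SE 0.223, adjusted p = 0.0404) in shRgs16 was no longer past the threshold without shLacZ replicate 1 (adjusted p = 0.0978), 2 (0.11) or 3 (0.071), or without shRgs16 replicate 1 (0.082), 2 (0.103) or 4 (0.0608). It was at -0.38 (SE 0.212, adjusted p = 0.148) in shG0s2. Ppp1r15a, the GADD34 subunit that directs a phosphatase to eIF2, was at 14.8 to 20.1, 14.7 to 20.1 and 14.1 to 15 CPM, with 0.07 (SE 0.122) and -0.16 (SE 0.103), neither past the threshold. Under scaling by library size alone, Atf4 (0.55), Ddit3 (2-fold), Trib3 (0.78) and Ppp1r15a (0.57) were called higher in shG0s2. So were 64.6% of all genes tested there, and the arm's median of 0.56 stood beside 0.50 for all genes. Under TMM the arm thus held 1 lower member in shG0s2, and 3 lower and 1 higher in shRgs16. Of all genes tested, 29.2% were then lower in shG0s2, and 24.5% lower and 24.6% higher in shRgs16.

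Of the translocation pair, Sec61b is a subunit of the channel through which new proteins enter the ER. It was at 36.5 to 38.4 CPM in controls, 37 to 39.9 in shG0s2 and 29.8 to 36.6 in shRgs16, with 0.03 (SE 0.056) and -0.20 (SE 0.0707, adjusted p = 0.0332). The shRgs16 call was lost without shLacZ replicate 1 (adjusted p = 0.0529), 2 (0.0751) or 3 (0.0596), without shRgs16 replicate 2 (0.0888) or 3 (0.0837), and with library size alone (0.10). Ssr1, a subunit of the channel's TRAP complex, read 81.1, 84.7, 84 and 81.6 CPM in shLacZ, 89.2, 101, 101 and 96.3 in shG0s2, and 81, 86.4, 80.1 and 86.7 in shRgs16. It was higher in shG0s2 at 0.23 (SE 0.0564, adjusted p = 0.00323) and at 0.01 (SE 0.0507) in shRgs16. With library size alone it was higher in both, at 0.73 and 0.31.

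**Figure D3:**
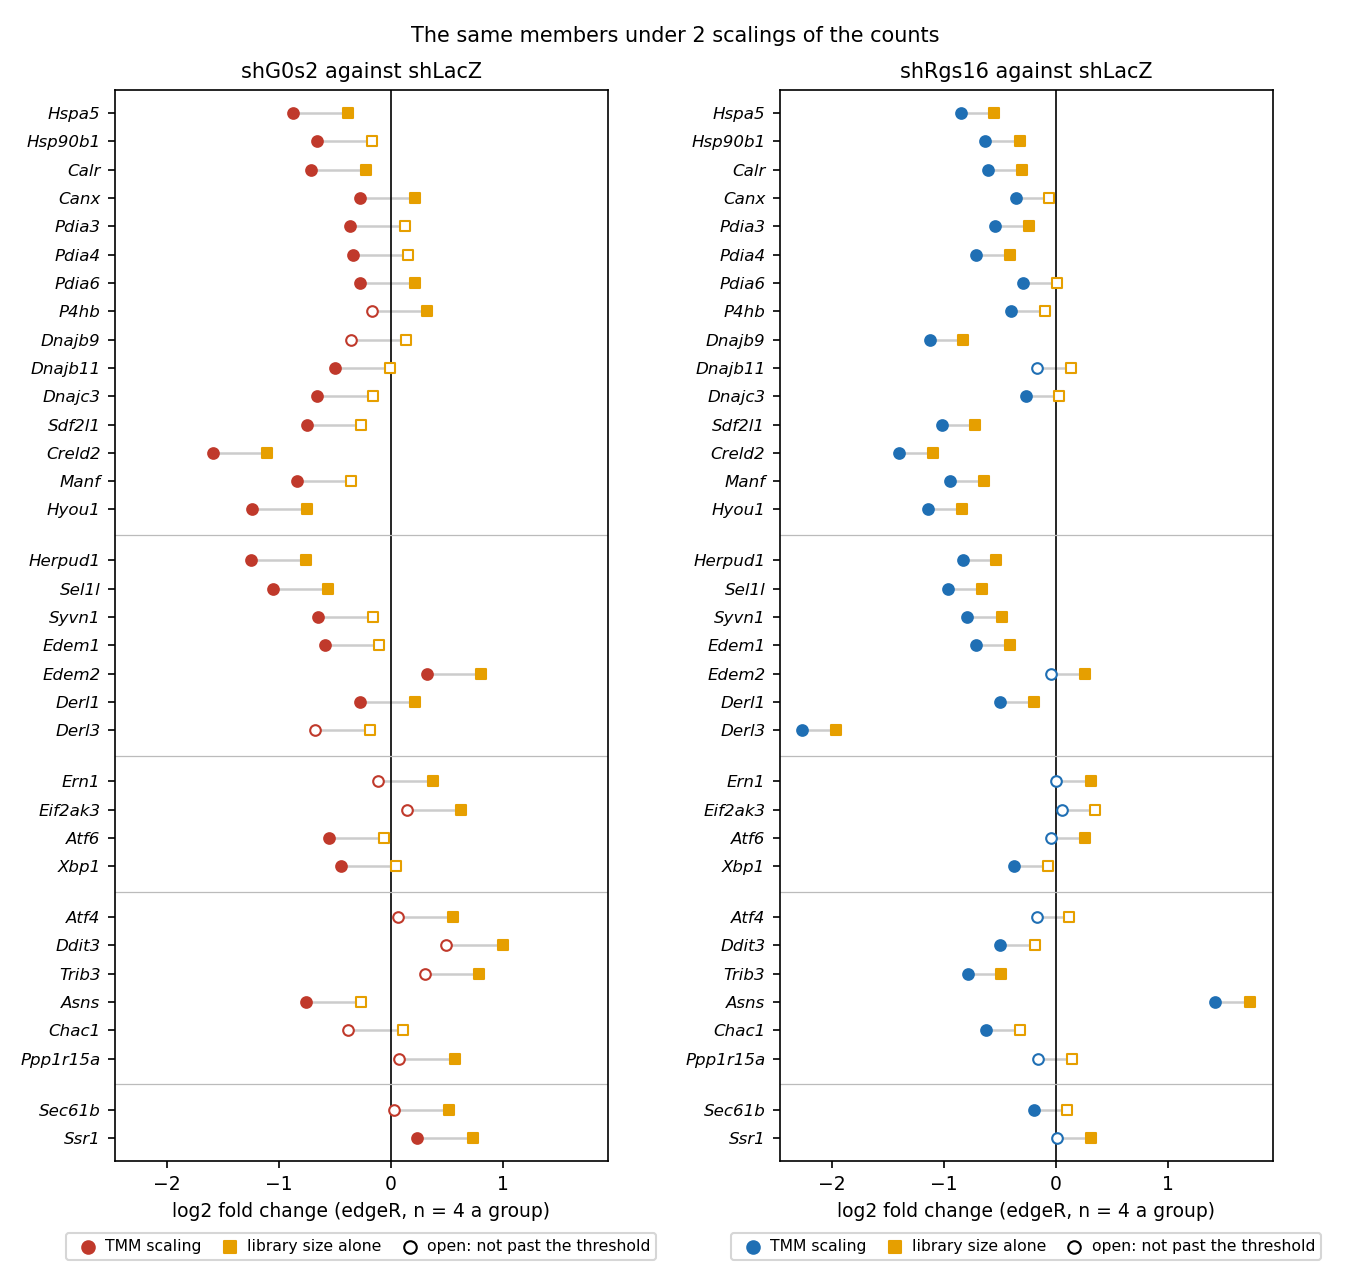
Log2 fold change against shLacZ of each member (rows, by branch) with TMM scaling (circles) and with library size alone (orange squares), in shG0s2 (left) and shRgs16 (right), 4 samples a group, with open symbols for values not past an adjusted p of 0.05. Library size alone places every member further right; 6 members in shG0s2 and 17 in shRgs16 were called lower under both.

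The knockdowns were compared with each other in a model of all 12 samples, which asks where a member's response differed. Under TMM 10 members were higher and 5 lower in shG0s2 than in shRgs16, against 21.0% and 20.5% of 16018 genes, and the members' median was 0.09. By library size alone 17 were higher and 3 lower, against 37.8% and 9.79% of genes. The largest differences after Asns were in Derl3 at 1.57 (SE 0.36, adjusted p = 0.00264), Trib3 at 1.07 (SE 0.139, adjusted p = 2.3e-05), Ddit3 at 0.98 (SE 0.212, adjusted p = 0.00212) and Dnajb9 at 0.75 (SE 0.162, adjusted p = 0.00322), all higher in shG0s2. Smaller positive differences were found in Pdia4 (0.36), Edem2 (0.34), P4hb (0.22), Sec61b (0.22), Derl1 (0.21) and Ssr1 (0.21). All 10 were higher with library size alone too.

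The members lower in shG0s2 than in shRgs16 were, besides Asns and Atf6, Dnajc3 at -0.40 (SE 0.067), Dnajb11 at -0.34 (SE 0.106) and Herpud1 at -0.44 (SE 0.16, adjusted p = 0.0443). Dnajb11 (-0.14) and Herpud1 (-0.23) were not past the threshold with library size alone. Leaving out single samples also ended calls near the threshold. Herpud1 was lost without shG0s2 replicate 1 (adjusted p = 0.107), 2 (0.0926) or 4 (0.093) and without shRgs16 replicate 3 (0.131) or 4 (0.105). Dnajb11 was lost without shG0s2 replicate 1 (0.0511) or shRgs16 replicate 4 (0.0531), and with either of these samples left out 3 members were lower. P4hb was lost without shRgs16 replicate 1 (0.0501) and Sec61b without shRgs16 replicate 3 (0.051). Hspa5, Hsp90b1, Creld2 and Hyou1 did not pass this test. The approximate 95% interval of the log2 difference was -0.28 to 0.22 for Hspa5, -0.22 to 0.13 for Hsp90b1, -0.61 to 0.20 for Creld2 and -0.46 to 0.23 for Hyou1. It rests on the same normal approximation as for the sensors and is likewise too narrow.

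Per transcript length, the order of the members in control liver was led by chaperones, an isomerase and Herpud1. In deposited TPM, P4hb was highest at 449 ± 25.6 (SD, n = 4), followed by Herpud1 at 394 ± 65.3, Calr at 371 ± 25.9, Hsp90b1 at 354 ± 29.7 and Hspa5 at 317 ± 43.4. Neighbours among these 5 overlapped in their ranges. Folding and signalling genes interleaved further down, with Xbp1 above Pdia4 and Atf4 above Dnajb11. Of the sensors, Xbp1 was at 116 ± 12.5, Atf6 at 18.3 ± 0.428, Ern1 at 10.8 ± 0.442 and Eif2ak3 at 5.61 ± 0.932. Asns was last at 2.6 ± 0.454 TPM and Derl3 next at 4.28 ± 2.74.

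Samples of a group also moved together across members. In shLacZ, replicate 2 was the highest of 4 for 24 of 34 members and replicate 4 the lowest for 21. In shG0s2 replicate 1 was lowest for 23 and replicate 3 highest for 16, and in shRgs16 replicate 4 was highest for 18 and replicate 2 lowest for 15. The same orders were not counted over all genes, so they are not shown to be particular to the members. The median coefficient of variation within a group was 12% in shLacZ, 9.05% in shG0s2 and 7.4% in shRgs16. Derl3 varied most in shLacZ (43.9%) and shRgs16 (39.1%), and Ddit3 in shG0s2 (38%).

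**Figure D4:**
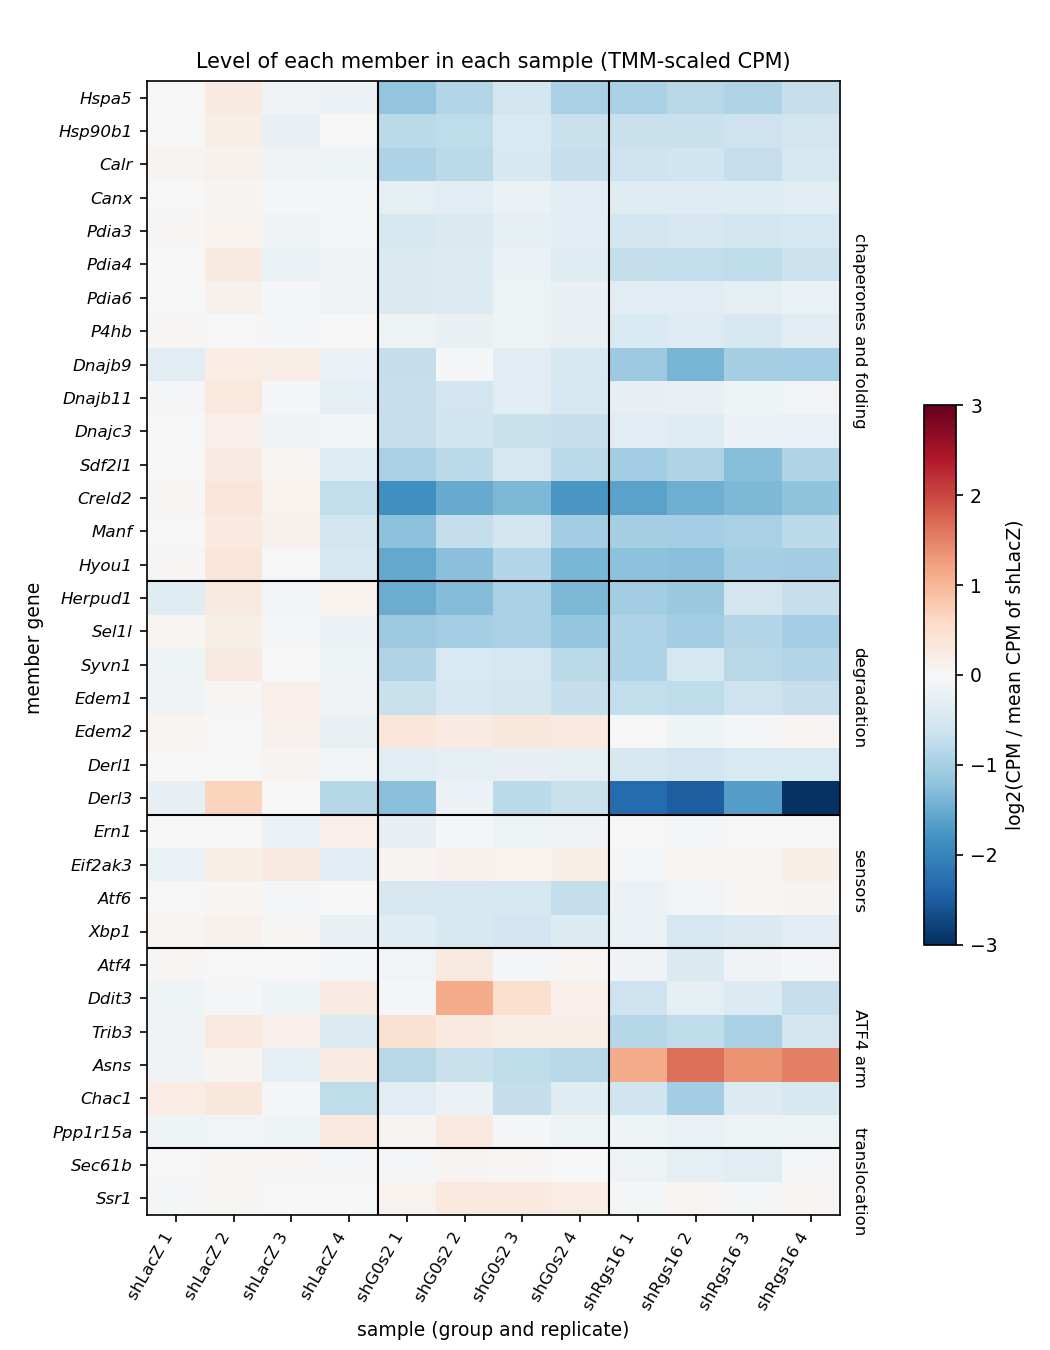
Colour gives log2 of each sample's TMM-scaled CPM over the shLacZ mean, for 34 members (rows, by branch) in 12 samples (columns). The blue blocks are chaperone and degradation genes in both knockdowns, deepest for Derl3 in shRgs16, and the red row is Asns in shRgs16. With library size alone, 13 members, and 64.6% of all genes tested, were called higher in shG0s2.

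The promoter elements were set beside the responses. Of the 11 members with an ERSE or ERSE-II, 10 were lower in shG0s2 and 10 in shRgs16 under TMM, with medians of -0.66 and -0.63. Of the 19 with a window and neither element, 7 were lower and 2 higher in shG0s2 (median -0.17), and 12 lower and 1 higher in shRgs16 (median -0.40). On library totals alone, 4 of the 11 were lower and 2 higher in shG0s2, and 7 lower in shRgs16. Of the 19 the numbers were then 1 lower and 10 higher, and 7 lower and 4 higher. Of all genes tested, 29.2% were lower and 31.3% higher in shG0s2 under TMM, and 24.5% and 24.6% in shRgs16. With library size alone 7.99% and 8.35% were lower, and 64.6% and 50.2% higher. No test was made of the split by element, since the element goes with the branch. Under TMM the 2 exceptions among the 11 were Derl3 in shG0s2 and Dnajb11 in shRgs16, each negative but not past the threshold. With library size alone Dnajb11 was at 0.13 in shRgs16. Among the 4 members with a CARE, Asns rose in shRgs16, while Trib3, Chac1 and Herpud1 fell there. The UPRE core (TGACGTG) stood in Hspa5 and the CRE (TGACGTCA) in Ppp1r15a, 3.33% of members each, against 2.22% and 2.03% of genes.

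Other genes of the same pathways were followed in lists that do not hold the members. Across all genes tested, 29.2% were lower and 31.3% higher in shG0s2 and 24.5% and 24.6% in shRgs16 under TMM, and 7.99% and 64.6%, and 8.35% and 50.2%, with library size alone. The counts of each list stand beside these shares, and no list was tested against them. Of 27 other ER folding enzymes and chaperones, 15 were lower and 2 higher in shG0s2 and 9 lower and 4 higher in shRgs16 under TMM, but 4 lower and 11 higher, and 5 lower and 11 higher, with library size alone. Ero1lb, an oxidase that feeds the isomerases, was lower in both knockdowns at -1.27 (SE 0.109) and -1.08 (SE 0.145), and Ganab, the glucosidase of the calnexin cycle, at -0.89 (SE 0.076) and -0.52 (SE 0.0674). Dnajc10, a J-domain reductase, was higher in both at 0.66 (SE 0.0739) and 0.37 (SE 0.0775). In shRgs16 Hspa13 was at -1.15 (SE 0.0788) and Tmx1 at -0.69 (SE 0.0585), and Fkbp11 (0.56, SE 0.0999) and Txndc12 (0.33, SE 0.0608) were higher. Between the knockdowns, Hspa13 was higher in shG0s2 by 0.99 (SE 0.0841) and Sil1 lower, at -0.74 (SE 0.0791).

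Of 22 other degradation genes 18 were lower and 1 higher in shG0s2, and 13 lower and 1 higher in shRgs16, under TMM. When scaled by library size alone, 2 were lower and 8 higher, and 3 lower and 8 higher. Os9, a lectin of the HRD1 complex, was at -0.92 (SE 0.0903) in shG0s2 and at -0.06 (SE 0.069), not past the threshold, in shRgs16. Fam8a1, a cofactor of HRD1, was lower in both at -0.57 (SE 0.064) and -1.33 (SE 0.065), and Derl2 at -0.45 (SE 0.0695) and -0.53 (SE 0.054). By library size alone both stayed lower in shRgs16 and neither passed in shG0s2 (-0.08 and 0.04). Vcp, the ATPase that pulls proteins out of the membrane, was the 1 higher gene in each, at 0.30 (SE 0.0953) and 0.26 (SE 0.0898). Os9 was lower in shG0s2 than in shRgs16, at -0.87 (SE 0.0863), and Fam8a1 higher by 0.75 (SE 0.068).

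Of 28 other genes of translocation, signal peptidase and N-glycan transfer, 10 were lower and 5 higher in shG0s2, and 12 lower and 3 higher in shRgs16, under TMM. Under scaling by library size alone 1 was lower and 23 higher, and 2 lower and 15 higher. Srpr, the receptor of the signal recognition particle, was lower in both at -0.76 (SE 0.0672) and -0.71 (SE 0.0569). Ssr3, from the same TRAP complex as Ssr1, was higher in shG0s2 at 0.41 (SE 0.0725) and lower in shRgs16 at -0.17 (SE 0.0616), the latter at 0.13 and not past the threshold with library size alone. Stt3b, a catalytic subunit of glycan transfer, was at -0.60 (SE 0.053) in shRgs16 and was higher in shG0s2 than in shRgs16 by 0.66 (SE 0.0511).

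Of 12 other sensors and membrane-bound factors, 4 were higher and 2 lower in shG0s2 and 3 higher in shRgs16 under TMM, and 10 and 11 were higher with library size alone. Creb3l3, a liver relative of ATF6, was lower in shG0s2 at -0.58 (SE 0.09), and its relative Creb3l1 was higher in both, at 1.80 (SE 0.242) and 0.84 (SE 0.313). Of 15 genes for eIF2, its kinases and its phosphatase regulators, 6 were lower and 2 higher in shG0s2 and 5 lower and 2 higher in shRgs16, but 12 and 9 were higher with library size alone. Eif2ak4, the kinase GCN2 that senses amino acid shortage, was higher in shRgs16 at 0.45 (SE 0.0781) and was lower in shG0s2 than in shRgs16, at -0.46 (SE 0.0852). Eif2ak1 was lower in both, at -0.44 (SE 0.0588) and -0.48 (SE 0.0554), but at 0.05 in shG0s2 with library size alone.

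Of 29 other targets of ATF4 and CHOP, 16 were higher and 3 lower in shG0s2 (median 0.91) and 10 higher and 4 lower in shRgs16 (median 0.20), and with library size alone 21 were higher in shG0s2 and 16 higher and 1 lower in shRgs16. Slc3a2, the shared heavy chain of amino acid transporters, was higher in both at 0.86 (SE 0.0629) and 0.88 (SE 0.0644). Tnfrsf10b, a death receptor, was higher in both at 2.59 (SE 0.174) and 1.25 (SE 0.183), and so was Atf3, a stress-induced transcription factor, at 1.97 (SE 0.204) and 1.81 (SE 0.216). Of the lower genes, Gpt2 was at -0.57 (SE 0.0959) and -0.58 (SE 0.0995), and Shmt2 was at -0.52 (SE 0.064) in shG0s2. With library size alone these calls were not past the threshold. Slc7a11, the cystine transporter that pairs with Slc3a2, was at 0.719 ± 0.516 CPM (SD, n = 4) in controls, 18.8 ± 4.04 in shG0s2 and 0.825 ± 0.178 in shRgs16, a direct log2 difference of 4.50 (SE 0.297, adjusted p = 2.0e-07) between the knockdowns. Vldlr, a lipoprotein receptor, was at 3.94 ± 0.608, 10.7 ± 1.12 and 1.83 ± 0.0707 CPM, a direct difference of 2.54 (SE 0.136). Cth, which makes cysteine, was on average 360 ± 214 CPM in controls, 207 ± 29.3 in shG0s2 and 834 ± 209 in shRgs16, a direct difference of -2.01 (SE 0.367, adjusted p = 0.00168). Against shLacZ, Cth did not pass in either knockdown under TMM (adjusted p = 0.125 in shG0s2 and 0.0527 in shRgs16).

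Of 20 cytosolic aminoacyl-tRNA synthetases, which include known ATF4 targets, 7 were lower and 3 higher in shG0s2 and 2 lower and 5 higher in shRgs16 under TMM. With library size alone 17 were higher in shG0s2, and 15 higher and 1 lower in shRgs16. Iars was higher in shRgs16 at 0.44 (SE 0.0676) and lower in shG0s2 than in shRgs16, at -0.59 (SE 0.0755). Of 19 cytosolic heat shock genes, which belong to a separate stress response, 9 were lower and 2 higher in shG0s2 and 4 lower and 4 higher in shRgs16. By library size alone 1 was lower in each, and 11 and 10 were higher. Hsp90aa1 was higher in both, at 0.83 (SE 0.0885) and 0.45 (SE 0.0741), in contrast to its ER relative Hsp90b1, and Hspb1 was higher in shRgs16 at 1.03 (SE 0.171).

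The authors' deposited table, which flags genes by its own criteria, marked 4 members as significantly lower in shG0s2, namely Creld2, Hyou1, Herpud1 and Sel1l. For shRgs16 the authors' deposited table marked 5 as lower, namely Dnajb9, Sdf2l1, Creld2, Hyou1 and Derl3, and 1 as higher, Asns. Of the marked members Sdf2l1 in shRgs16 had the deposited log2 fold change smallest in size, -1.02. Hspa5, at -0.88 in shG0s2, and Sel1l, at -0.97 in shRgs16, were not marked. How many of all genes the authors marked was not counted, so these numbers have no background share. A second row named Ddit3 in the tables, a short gene model of 105 bases, reached at most 1.82 estimated counts in a sample and was not tested.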

How the data were processed

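The authors deposited 1 table per knockdown against shLacZ, with estimated counts and TPM per gene and sample, per the file headers. The authors' own comparison (a ratio of group levels, the log2 of that ratio, p-values) is deposited too and is used only where named. The submitters' processing notes list Bowtie2 2.2.9, SAMtools 1.9, GATK 3.8, DESeq2 and fastp 0.19.5 with no role for any; the counter, build, annotation and strand were not given in the sources used here. The shLacZ columns of both tables were the same (8 compared, 0 differences), so the 12 samples were joined. No per-sample column was left unused.

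Estimated counts were rounded, filtered with filterByExpr, scaled by TMM and tested two-sided in edgeR 4.0.16 (R 4.3.3, robust quasi-likelihood F test, Benjamini-Hochberg over all genes tested, false discovery rate 0.05). Every adjusted p is edgeR's unless another tool is named. Each knockdown was compared with shLacZ in 8 samples, and with the other in all 12. The code was tested on simulated data. CPM were scaled by TMM over 12 samples; TPM, which accounts for length, was used between genes. Counts of 2 samples of a group always differed beyond sampling noise (chi-square over its degrees of freedom 11.2 to 43.4).

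Members, lists and tests were chosen with earlier results of these data known. All members were named, and of each other pathway list up to 2 genes a direction with the smallest p past the threshold; 1 gene so named is not reported here. Gene coordinates are from GENCODE (GRCm38) by gene identifier, promoter windows from RefSeq (GRCm38.p6) by symbol. The hepatocyte marker Tf had no matching row. Alternatives were DESeq2 1.42.0, scaling by relative log expression or by library size alone, testing without the filter, limma 3.58.1 on log2(TPM + 1), a replicate block, other samples in the model and leaving out each sample. In judging these, a member past the threshold in neither fit was given no direction.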

Additional observations from a re-analysis of the deposited data

Results flagged for a closer look

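Among 102 sets of 4 samples (34 members in 3 groups), 3 held a sample that stood far from the other three by Dixon's test, and chance marks about 1 in 20 sets. In shRgs16, Manf was highest in replicate 4 at 61.9 CPM and Atf4 was lowest in replicate 2 at 57.9 CPM. In shLacZ, Ppp1r15a was highest in replicate 4 at 20.1 CPM.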

How the results depend on the processing

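Which members were lower depended on the scaling more than on the tool or on single samples. With library size alone the members higher and lower numbered 13 and 6 in shG0s2 against shLacZ, 5 and 17 in shRgs16 against shLacZ, and 17 and 3 in shG0s2 against shRgs16. With limma on log2(TPM + 1) they numbered 16 and 4, 9 and 14, and 19 and 2. The cause was not tested. For limma the share of all genes called is not given here, so its counts have no background beside them. DESeq2, relative log expression scaling, no filter and other samples in the model kept all 6 counts within 1.5 times. Leaving out 1 sample gave 2 to 3 higher and 21 to 23 lower in shG0s2, 1 higher and 23 to 26 lower in shRgs16, and 9 to 12 higher and 3 to 5 lower between the knockdowns. The replicate numbers did not pair the samples (correlations of same-numbered samples from -0.116 to 0.217 over 12 pairs). With the replicate block the counts were 2 and 23, 1 and 23, and 10 and 5, and only Chac1 (adjusted p = 0.0922) and Sec61b (0.0548) lost a call, both in shRgs16.

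These log2 fold changes changed sign. Library totals alone gave, in shG0s2, Canx 0.21, Derl1 0.21, Ern1 0.37, P4hb 0.32, Pdia3 0.12, Pdia4 0.15, Pdia6 0.21, Xbp1 0.04, Sec62 0.02, Mbtps1 0.24, Eif2ak1 0.05, Ppp1r15b 0.14 and Eprs 0.02. In shRgs16 they were Atf6 0.26, Dnajc3 0.03, Edem2 0.26, Pdia6 0.01, Sec61b 0.10 and Mars 0.00, and between the knockdowns Pdia6 0.19. With limma on log2(TPM + 1) in shG0s2 they were Hsp90b1 0.05, Calr 0.02, Canx 0.44, Pdia3 0.33, Pdia4 0.38, Pdia6 0.43, P4hb 0.49, Dnajb11 0.21, Dnajc3 0.05, Edem1 0.17, Derl1 0.42, Ern1 0.51, Atf6 0.14 and Xbp1 0.26. Of the other pathway genes there, Sec62 was at 0.20, Creb3l3 0.05, Mbtps1 0.36, Eif2ak1 0.24, Ppp1r15b 0.34, Shmt2 0.19, Gpt2 0.12, Tars 0.11, Eprs 0.22, Hspe1 0.11 and Dnaja1 0.07. In shRgs16 limma gave Canx 0.06, Pdia6 0.13, Dnajc3 0.16, Edem2 0.38, Atf6 0.38, Xbp1 0.03, Atf4 0.25, Sec61b 0.22, Mars 0.12, Dnaja1 0.00 and Hspa4 0.07. Between the knockdowns it gave Hsp90b1 0.24, Pdia6 0.30, Xbp1 0.24 and Shmt2 0.01. No member changed sign under any other alternative where either fit called it. Derl3 had the lowest CPM of the members in each group, 0.358 to 4.48 over all samples, and depth limits the precision of its values.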
